A study of Homo sapiens with 12 samples.

Results

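A set of 244 genomic regions is described here, in which probes against the long non-coding RNA SLEAR and control probes against lacZ both gave peaks. The cells were Jurkat, a human line derived from a T-cell leukaemia. Every library came from Jurkat cells that stably expressed SLEAR, grown in RPMI-1640 with 10% fetal bovine serum, so the control probes were used on the same engineered cells and no library without the RNA was compared. The labels do not say how the RNA was introduced or whether the line is 1 clone. Chromatin was captured by ChIRP with 3 kinds of probe, named odd, even and lacZ, in 3 libraries each, and peaks had been called by the authors in each library on build hg19. The input libraries, also 3 in number, were not used here. Members were chosen by peak presence: overlapping peaks of the 9 lists on chromosomes 1 to 22 and X were merged, and a region was kept if at least 5 of the 6 odd and even lists and at least 1 of the 3 lacZ lists had a peak in it. Of 357901 merged regions 244 met this rule, a share of 0.0682%. Another 4042 regions met the rule for odd and even lists with no lacZ peak, and they serve as the comparison set below.

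ChIRP (chromatin isolation by RNA purification) uses short biotinylated oligonucleotides that pair with an RNA to pull down the crosslinked chromatin on which that RNA sits. The oligonucleotides are split in 2 pools, odd and even, with no sequence in common, because DNA that both pools bring down is less likely to come from pairing of a particular oligonucleotide with DNA or with another RNA. lacZ is a bacterial gene that human cells lack, so its probes have no RNA target, and regions where lacZ probes also give a peak are usually set aside as places that many kinds of probe may bring down. The regions below are the ones such a filter removes.

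The lists differed in length, which sets how easily a list can take part in the rule. On the chromosomes used, lacZ replicate 2 held 90804 peaks, lacZ replicate 1 held 46560 and lacZ replicate 3 held 26460, while the probe lists held from 66336 in odd replicate 1 to 124191 in even replicate 3. Depth is unknown for all 9 lists. The lacZ side of the membership rested mostly on 1 library, the longest of the 3 lacZ lists, and the part played by length was not tested. A lacZ replicate 2 peak was present in 241 of the 244 regions, a replicate 1 peak in 145 and a replicate 3 peak in 90. This order of the replicates was not particular to members. Where every odd list but none of the even lists gave a peak, 3.86% of regions held any lacZ peak. Replicate 2 was present in 3.76% of those regions, replicate 1 in 2.17% and replicate 3 in 1.28%. With odd and even exchanged, 3.84% held any lacZ peak, and the shares were 3.75%, 2.09% and 1.24%. In 97 of the 244 members a single lacZ list had a peak, and in 95 of these it was replicate 2. In 62 regions 2 lacZ lists had a peak and in 85 all 3 did. Without lacZ replicate 2 the rule gave 125 regions. On the probe side all 6 lists had a peak in 135 regions, and in the other 109 the list without a peak was most often the shortest, odd replicate 1, which lacked 59 of them. All 9 lists had a peak in 49 regions. With every replicate numbered 1 left out, and 3 of 4 probe lists then required, the counts were 374 and 74, and with every replicate numbered 3 left out the count for all lists was 77.

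The name given to such regions, sites that any probe set may recover, asks that the 3 kinds of probe recover the same stretch. A base covered by odd, even and lacZ peaks alike existed in 137 of the 244 regions (56.1%), but its median extent there was 192 bases, or 20.1% of the region's length. In the other 107 regions (43.9%) the peaks formed a chain with no base common to all 3 sets. Even peaks were the link between odd and lacZ peaks in 51 of these chains, odd peaks were the link in 27, and lacZ peaks were the link in 27. In these last 27 the odd and even peaks did not touch, and the region met the rule through lacZ peaks that overlapped both. In the remaining 2 chains each pair of sets overlapped at a different place. Because the name holds for some of the 244 and not for others, they are called lacZ-sharing probe regions here, by the rule that chose them.

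Chains were also present where lacZ support was strongest. Of the 49 regions with a peak in all 9 lists 34 had a common base (69.4%), and in 7 the lacZ peaks linked odd and even peaks that did not touch. Such links were also seen in regions with 5 probe lists and all 3 lacZ lists, which are not among the 49. On chromosome 2 from 5607307 to 5608486 (positions on hg19 throughout) was 1 of these. Its lacZ peaks had a fold enrichment of 73.7, 151 and 33.1 in replicates 1, 2 and 3. Fold enrichment is the authors' ratio of the coverage at a peak's summit to a background. Because the depth of the lists is unknown, folds are compared between sets through the percentile of a peak's fold among all peaks of its list. The lacZ peaks on chromosome 2 stood at percentiles of 98.1, 98.0 and 89.9. The odd peaks there had a fold of 6.25, 13.1 and 22.5 with summits 34 bases from the lacZ summit, whereas the even peaks, with fold values of 4.604 and 7.57 (replicates 2 and 3), lay 625.5 bases from it and shared no base with the odd peaks. Another, also with 5 probe lists, lay on chromosome 15 from 26202026 to 26204191. Its odd and even summits were 1486.5 bases apart, with lacZ peaks between them, 748 bases from the odd and 738.5 bases from the even summit. The odd folds there were 17.5, 11.3 and 12.3, the even folds 8.89 and 8.87 in replicates 1 and 3, and the lacZ folds 20.5, 51.7 and 11.3.

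The summit, the base with the highest coverage in a peak, was not used by the rule. Each set was represented by the median summit of its strongest peaks in a region. Within a set, the lists placed their summits close together: the range over the lists was at most 100 bases in 228 of 244 regions for odd, in 229 of 244 for even and in 138 of the 147 with at least 2 lacZ lists. Between sets they were farther apart. The median distance was 242 bases between odd and even summits, 288.5 between even and lacZ, and 334.25 between odd and lacZ. The pair lay within 100 bases in 65 regions (26.6%) for odd and even, in 57 (23.4%) for even and lacZ, and in 37 (15.2%) for odd and lacZ. Odd and even were the closest pair in 100 regions, even and lacZ in 80 and odd and lacZ in 63, with 1 tie. The outermost of the 3 summits were more than 500 bases apart in 124 regions (50.8%), and all 3 lay within 100 bases in 10 (4.10%). At least 1 pair of sets had summits within 100 bases in 131 regions (53.7%). Along the chromosome the even summit was in the middle in 99 regions, the odd summit in 80 and the lacZ summit in 65.

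**Figure D1:**
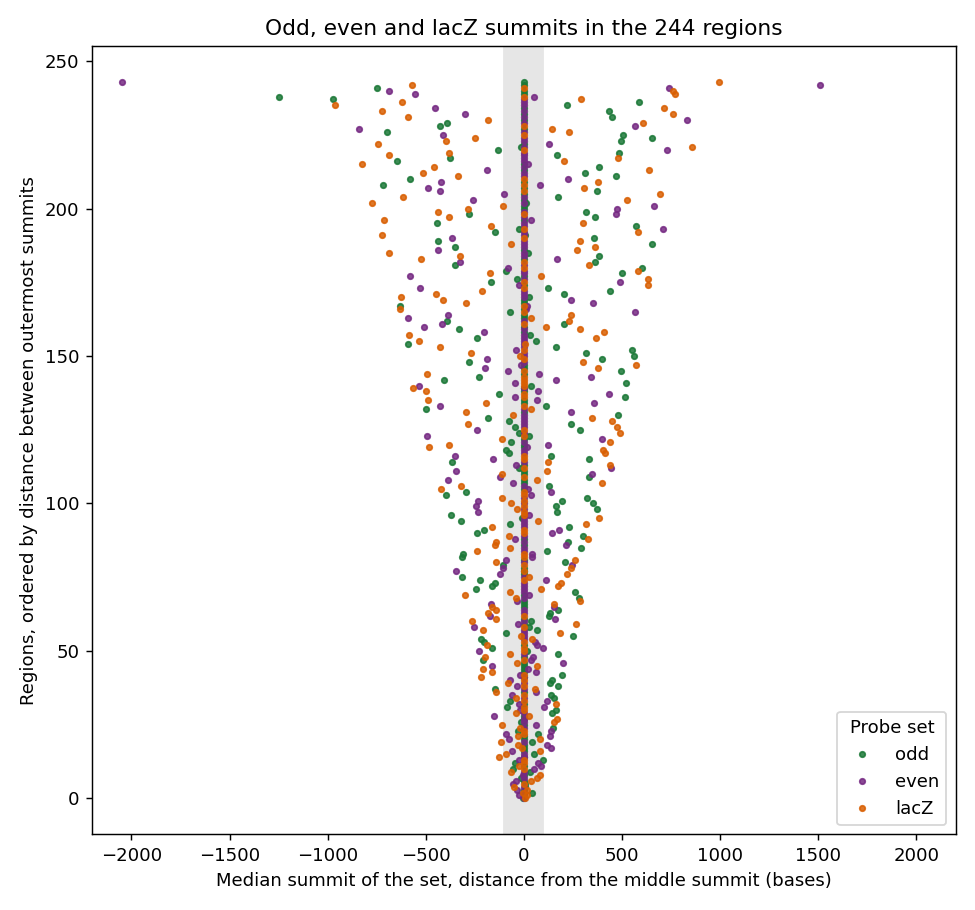
Each row is 1 of the 244 regions, and the 3 points are the median summits of the odd (green), even (purple) and lacZ (orange) lists, plotted as the distance in bases from the middle one. The grey band marks 100 bases to either side. In 10 rows the 3 points lie within 100 bases of each other, and in 124 rows the outermost points are more than 500 bases apart.

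More lacZ lists did not come with closer summits. Regions with all 3 lacZ lists had a median distance between the outermost summits of 576.5 bases (85 regions), against 435.75 with 2 lists (62 regions) and 463 with 1 list (97 regions). Their regions were also longer, with a median of 1253 bases against 1114.5 and 1037. In the 49 regions found in all 9 lists the outermost summits were 500 bases apart at the median, and in 1 of the 49 they lay within 100 bases. In that region, which is on chromosome 2 between 236995805 and 236996715, the folds were 14.4, 52.0 and 26.0 in odd, 10.3, 17.5 and 20.7 in even and 18.04, 40.6 and 6.53 in lacZ libraries. Its odd and lacZ summits were 8 bases apart and its odd and even summits 62 bases. As percentiles these were 67.4 to 90.5 in odd, 47.9 to 76.2 in even and 13.1 to 85.5 in lacZ libraries, so the sets overlapped.

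The 10 regions with coinciding summits come closest to the idea of a site that any probe brings down, and they did not look alike. The tightest lay on chromosome 2 from 20184616 to 20185662, with the 3 summits within 9 bases. Its even folds were 260, 255 and 334, its odd folds 39.5, 40.8 and 51.2, and its lacZ fold 6.58 in replicate 2, with no lacZ peak in the other two lists. The even peaks thus stood above the 99.8th percentile of their lists, the odd peaks between the 86.9th and 94.4th, and the lacZ peak at the 17.4th. On chromosome 1 from 180752384 to 180753388 the odd set was the strong one, with folds of 208, 655 and 203 against 6.67, 18.4 and 8.46 with even probes and 5.56 in lacZ replicate 2, and summits within 48 bases. On chromosome 16 from 72844294 to 72844896 all values were moderate, with 15.5 and 15.7 in odd replicates 2 and 3, 20.02, 18.6 and 17.5 in even libraries and 9.30 in lacZ replicate 2, and summits within 47 bases. On chromosome 1 the odd peaks were at or above the 99.9th percentile of their lists and the even peaks between the 23.3rd and 70.6th, with the lacZ peak at the 10.6th. On chromosome 16 the percentiles were 60.1 and 69.2 in odd, 70.9 to 75.3 in even and 36.3 in the lacZ library.

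In 3 further coinciding regions 1 probe set was stronger than the other, by differing margins. On chromosome 13 from 43940927 to 43941880 the odd folds were 201, 376 and 284, the even folds 55.8, 85.2 and 61.6, and the lacZ fold 6.33 in replicate 3, where replicates 1 and 2 had no peak. On chromosome 1 from 32202214 to 32203133 the even folds of 81.7, 138 and 75.5 stood against 9.31 and 4.62 in odd replicates 2 and 3 and 7.29 and 9.37 in lacZ replicates 1 and 2. On chromosome 1 from 236322709 to 236323489 the even folds were 47.3, 59.8 and 53.1, the odd folds 18.8, 40.7 and 26.7 and the lacZ folds 5.01 and 12.5 in replicates 1 and 2. By percentile the odd peaks on chromosome 13 stood at 99.96 to 99.99 and the even peaks at 95.4 to 96.8, so both sets were high. In the first region of chromosome 1 the even peaks stood at 97.4 to 98.9 and the odd at 34.4 and 8.28. In the second the even stood at 93.8 to 94.5 and the odd at 77.3 to 86.8. The lacZ peaks stood at 12.1 on chromosome 13. In the first region of chromosome 1 they stood at 28.2 and 36.6, and in the second at 9.87 and 51.8. Each lay below every peak of the stronger probe set. On chromosome 20 from 37962867 to 37963670 the even percentiles were 85.2, 90.4 and 90.7, the odd 32.9, 57.5 and 51.6 and the lacZ replicate 2 percentile 28.6, with summits within 57 bases. The region on chromosome 10 from 125371384 to 125372033 had no set apart from the others: its percentiles were 82.0, 73.01 and 45.7 with even, 33.7, 40.1 and 23.7 with odd, and 33.3 and 63.7 in lacZ replicates 1 and 2, with summits within 94 bases.

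The region on chromosome 3 from 144517873 to 144518470 had peaks with all 3 kinds of probe in the libraries numbered 1 and 2, and little or none in those numbered 3. In the libraries numbered 1 its fold was 25.8 with odd, 74.3 with even and 61.4 with lacZ probes. In those numbered 2 it was 46.8, 26.5 and 85.1. In those numbered 3 the odd and lacZ lists had no peak, and the even list had a weak one with a fold of 2.96 and a coverage of 4 fragments, at the 0.371th percentile of that list. The edges lay together too. The median starts of the 3 sets lay within 19.5 bases and the median ends within 2.5 bases. Among the 244 this was the 1 region in which both edges of the 3 sets lay within 100 bases; the median spread over all members was 524.25 bases at the start and 510.5 at the end. The pattern was singled out after its values were seen.

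Peak strength was next compared over all members, again as percentiles within each list. The members' median percentile was 63.2, 65.1 and 68.4 in odd replicates 1, 2 and 3, 66.0, 60.5 and 71.0 in the even lists, and 58.4, 60.3 and 48.3 in the lacZ lists. Peaks in the top 10% of a list made up 17.2% to 20.3% of the members' peaks in odd lists, 19.9% to 23.4% in even lists and 12.2% to 14.1% in lacZ lists. Member peaks were longer than the lists' peaks as a whole, with medians of 489, 517 and 489 bases against 394, 362 and 348 in odd lists. In even lists they were 541, 521 and 548 against 409, 400 and 366, and in lacZ lists 486, 479 and 472.5 against 420, 369 and 450. This was not particular to members. In probe regions without a lacZ peak the medians were 490, 502 and 512 in odd lists and 518, 488 and 526.5 in even lists. A longer peak has more bases in which another list's peak can meet it.

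A strong peak in 1 set did not go with a strong peak in another. Each set's mean percentile was taken over its lists with a peak. It was above the 90th percentile in 38 regions (15.6%) for odd, 46 (18.9%) for even and 16 (6.56%) for lacZ. Of all 244, 77 regions (31.6%) were above it in exactly 1 set, 8 in both odd and even, and 1 in all 3. With so few strong regions per set these overlaps are small numbers, and they were not tested. Across the 244 regions the correlation of mean percentiles was -0.19 (Pearson; Spearman -0.18) between odd and even, -0.043 (Spearman -0.051) between odd and lacZ, and -0.079 (Spearman -0.11) between even and lacZ. For pairs of lists of the same set it was 0.77 to 0.86 (Pearson), over 86 to 236 regions. These are descriptions across regions, which share their libraries and were selected on presence in all 3 sets, a choice that itself affects such a correlation. In the 49 regions with all 9 lists the corresponding Pearson values were 0.067, 0.13 and 0.21. The even set had the highest mean percentile in 106 regions, the odd set in 84 and the lacZ set in 54.

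**Figure D2:**
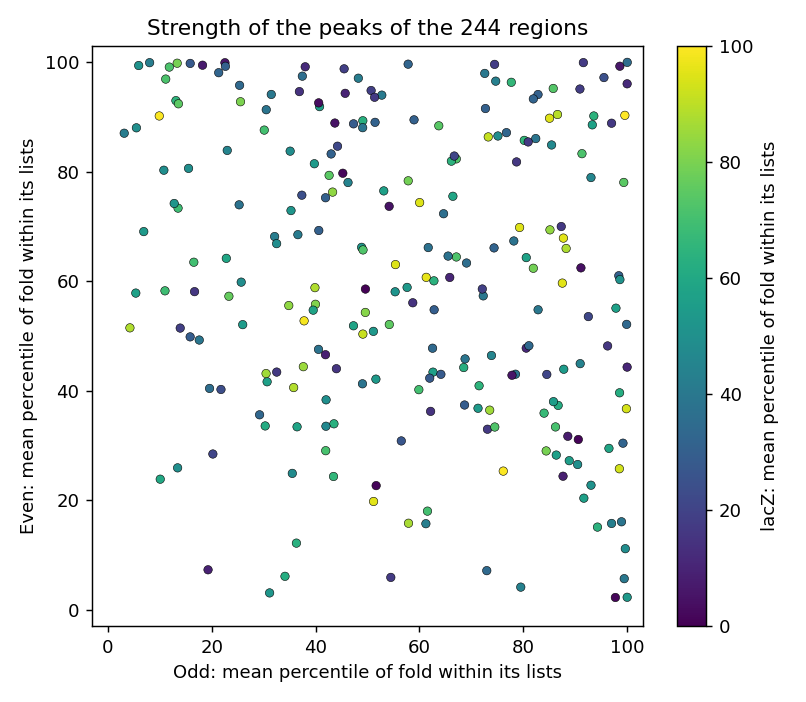
Each point is 1 of the 244 regions, at the mean percentile of fold in its odd (x axis) and even (y axis) lists, coloured by the mean percentile in its lacZ lists. Points fill the square with no upward trend (Pearson -0.19), and 1 region is above the 90th percentile in all 3 sets.

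The 10 members ranked highest by probe peaks differed in their lacZ peaks. In lacZ replicate 2, the list with a peak in 9 of them, the percentile was 17.7 or below in 4 regions, 24.6 in another, 57.3, 64.3 and 68.4 in 3 and 99.7 in 1. The region ranked first by mean percentile over the 6 probe lists lay on chromosome 8 from 102086950 to 102088916. Its folds were 284, 1016 and 387 in odd and 472, 822 and 467 in even libraries, with coverages of 1121, 3238 and 1559 and of 2221, 2955 and 1626 fragments. Its lacZ peaks had a fold of 19.3 and 50 fragments in replicate 2, at the 68.4th percentile of that list, and a fold of 4.19 and 12 fragments in replicate 3, at the 1.70th. The odd and even summits were 47 bases apart and the lacZ summit 326 bases from the odd one. All 6 probe peaks were among the 3 strongest of their lists. Within 2 Mb of it lay 2 further members and 9 probe regions without a lacZ peak.

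Further regions of this kind followed in rank. On chromosome 8 from 101421486 to 101422644 the folds were 91.0, 138 and 86.3 in odd and 95.9, 191 and 137 in even libraries, against 4.88 in lacZ replicate 2, a peak of 16 fragments at the 5.95th percentile of its list. On chromosome 19 from 58362496 to 58363514 the odd and even summits fell on the same base, with folds of 40.5, 92.2 and 67.0 in odd and 61.5, 79.2 and 109 in even libraries, and the lacZ replicate 2 peak of fold 7.53 (24.6th percentile) lay 216 bases away. On chromosome 6 from 158776176 to 158777233 the odd folds were 28.4, 53.4 and 48.7, the even folds 54.4, 66.2 and 56.6 and the lacZ replicate 2 fold 6.65 (17.7th percentile). Of the 10 highest ranked regions 8 had a peak in a single lacZ list, with a fold between 4.88 and 17.2. The value of 17.2, at the 64.3rd percentile, belonged to chromosome 8 from 10886830 to 10887831, where the odd folds were 29.4, 74.0 and 78.0 and the even folds 34.9, 42.6 and 41.1.

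Common ground of the 3 sets was limited in some of these as well. On chromosome 12 from 108695914 to 108697278 the odd folds of 52.7, 126 and 65.7 and the even folds of 41.0, 33.1 and 35.4 came from summits 571 bases apart, and the lacZ replicate 2 peak, with a fold of 6.40 (16.5th percentile), overlapped the even peaks alone. On chromosome 6 from 157199143 to 157200503 the lacZ replicate 2 peak of fold 14.2, at the 57.3rd percentile, overlapped the odd peaks (37.7, 59.3 and 53.7) and not the even peaks (51.1, 22.5 and 52.3).

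**Figure D3:**
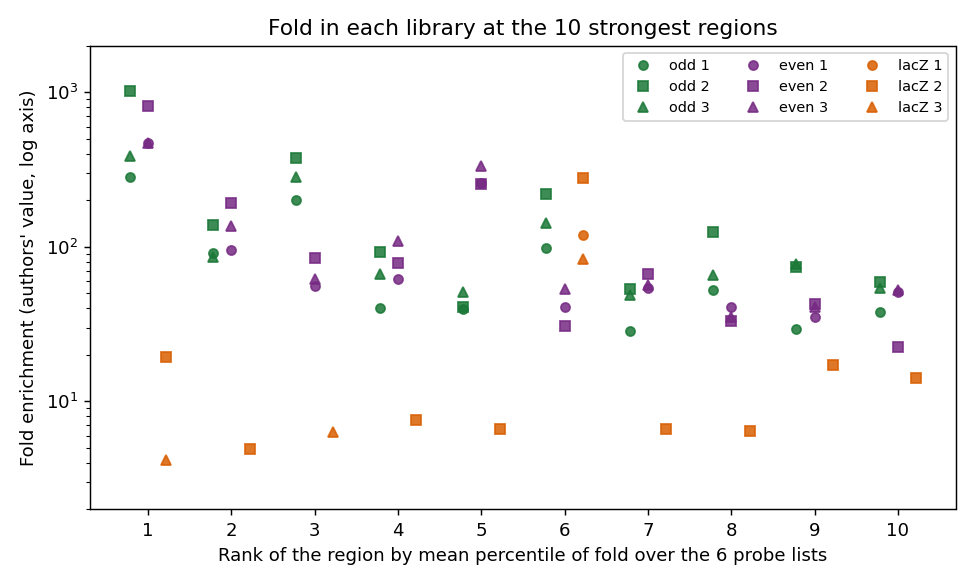
Fold enrichment (authors' value, log axis) in each library at the 10 members with the highest mean percentile over the probe lists, by rank on the x axis; colour gives the probe set and marker shape the replicate number. At 9 of the 10 every lacZ point, at most 19.3, lies below every odd and even point of the same region, and the same holds by percentile. The 10 were chosen for high odd and even values, so this order is favoured by the choice. The sixth region, on chromosome 9, has lacZ folds of 119, 279 and 84.0. A library without a point had no peak.

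The exception in that ranking was also the strongest member with lacZ probes. The region on chromosome 9 from 132688771 to 132690047 had folds of 98.0, 219 and 144 in odd, 40.6, 30.8 and 53.5 in even and 119, 279 and 84.0 in lacZ libraries, at or above the 84.5th percentile in all 9 lists. It was the 1 region above the 90th percentile on average in each set. Its even and lacZ summits were 65 bases apart, and the odd summit lay 418 bases from the lacZ summit. By percentile the odd and lacZ libraries stood between 99.4 and 99.7 there and the even libraries between 84.5 and 94.6.

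Other members ranked high by their lacZ peaks. On chromosome 8 from 103290903 to 103292463 the lacZ folds were 111, 229 and 76.4 and the even folds 40.02, 40.2 and 37.6, whereas odd replicates 1 and 3 had folds of 4.003 and 5.43 and replicate 2 had no peak. On chromosome 11 from 4145205 to 4147174 the lacZ folds were 82.2, 257 and 79.6, the odd folds 13.2, 28.4 and 28.1, and the even folds 6.42 and 7.09 in replicates 2 and 3. The even and lacZ summits were 1324 bases apart. The strongest odd peaks did not mark 1 site there: their summits were at 4147095, 4145907 and 4145889, on either side of the lacZ summit at 4146678. Weaker peaks of the lists in this region were not examined. On chromosome 5 from 138693993 to 138695508 the odd and even summits lay 23 bases apart with folds of 6.91, 13.7 and 7.56 and of 10.9, 8.35 and 18.2, while the lacZ summit, with folds of 86.1, 252 and 53.6, lay 825 bases from the odd one. By percentile the lacZ libraries stood at or above 99.4 in the region on chromosome 8, 98.7 on chromosome 11 and 97.4 on chromosome 5, and the probe libraries at or below 91.6, 85.4 and 72.03. On chromosome 14 from 69571653 to 69572625 the lacZ folds were 55.9, 120 and 47.6, against 9.77 to 21.3 in odd and 11.3 to 16.0 in even libraries.

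Members were also ranked by their lowest percentile over all 9 lists, and those ranked next after the region on chromosome 9 follow. This rank sets a floor on strength and does not measure how alike the sets were. On chromosome 20 from 31984087 to 31985438 the folds were 20.4, 39.0 and 47.5 in odd, 32.2, 39.1 and 54.3 in even and 31.1, 79.5 and 29.4 in lacZ libraries, which is 80.1 to 93.7, 87.7 to 94.8 and 86.9 to 93.7 as percentiles, so the 3 sets overlapped. On chromosome 7 from 36710048 to 36711205 they were 19.3, 40.7 and 36.2, then 23.8, 48.2 and 74.3, and with lacZ probes 47.9, 133 and 39.6. On chromosome 1 from 208275368 to 208276908 they were 12.5, 48.6 and 15.6 in odd, 44.1, 24.4 and 32.7 in even and 37.6, 92.7 and 30.3 in lacZ libraries. Summits of different sets were 152 to 319 bases apart on chromosome 7, 194 to 553 on chromosome 20 and 170 to 669 on chromosome 1. A region on chromosome 10 from 78491045 to 78493279 had lacZ folds of 69.6, 140 and 34.5 with even and lacZ summits 1450 bases apart, and one on chromosome 1 from 65366133 to 65367986 (lacZ: 41.4, 54.6 and 24.2) had no base common to the 3 sets.

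The longest member showed how far merging can reach. It lay on chromosome 4 from 1265563 to 1269424 and spanned 3862 bases, with odd folds of 79.4, 102 and 168, even folds of 4.65 and 9.35 in replicates 2 and 3, and lacZ folds of 46.9, 131 and 29.9. Taken at the strongest peaks, its odd and even summits were 2048.5 bases apart, and its even and lacZ summits 3042.5 bases. The lists' even peaks together covered 1222 bases there, all of them under odd peaks, and 113 bases were common to all 3 sets. On chromosome 2 from 205651046 to 205653820 the odd and even summits were 1511 bases apart, with odd folds of 7.52, 11.8 and 15.2, even folds of 32.0, 32.5 and 53.8 and lacZ folds of 19.0, 44.5 and 8.77. That distance too was between strongest peaks: the 371 bases under odd peaks all lay under even peaks, and 215 bases were common to all 3 sets. The members' length ran from 456 bases, with a median of 1106.5.

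With 5 probe lists and 1 lacZ list, the fewest the rule allows, there were 40 members. The highest ranked of them, on chromosome 2 from 227898108 to 227899013, had folds of 24.6 and 15.8 in odd replicates 2 and 3, 32.8, 44.9 and 60.3 in even libraries and 8.34 in lacZ replicate 2. The lowest, on chromosome 21 from 33305897 to 33306615, had 4.33, 8.004 and 6.75 in odd libraries, 4.02 and 5.10 in even replicates 1 and 2 and 5.45 in lacZ replicate 2. Just outside, 163 regions had a lacZ peak and 4 probe lists. The highest ranked of those, on chromosome 6 from 91152889 to 91154600, had odd folds of 75.7, 119 and 144 and lacZ folds of 77.2, 218 and 36.8, with an even peak of 10.1 in replicate 3 alone.

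The 244 members were then read against how often any probe region meets a lacZ peak. They were 5.69% of the 4286 regions with at least 5 probe lists. Regions found in all 3 odd lists and no even list held a lacZ peak in 3.86% of 54075 cases, and those found in all 3 even lists and no odd list in 3.84% of 64273. Regions of both sets were wider, with 875 bases under probe peaks at the median against 584 for odd alone and 592 for even alone, and in all 3 kinds of region the share with a lacZ peak was higher in the widest class than in the narrowest. Between 801 and 1000 bases it was 4.69% for both sets (95% Wilson interval 3.73 to 5.87), 4.72% for odd alone (4.19 to 5.32) and 5.01% for even alone (4.53 to 5.54). Between 601 and 800 bases it was 5.76% (4.56 to 7.27), 4.25% (3.97 to 4.55) and 4.32% (4.06 to 4.59). These intervals cover the counting of regions and not the spread between libraries.

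**Figure D4:**
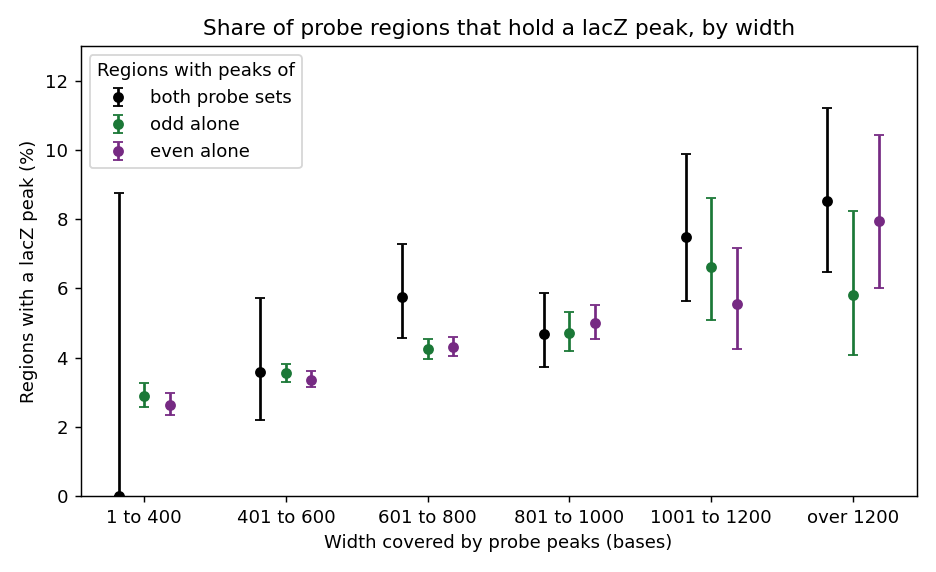
Percentage of regions that hold a peak in at least 1 lacZ list (y axis), by the number of bases under odd and even peaks (x axis), for regions of both probe sets (black), odd alone (green) and even alone (purple); bars are 95% Wilson intervals. The share goes from 3.58% at 401 to 600 bases to 8.53% over 1200 bases for both sets, and in every width class its interval overlaps that of at least 1 of the single-set kinds.

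At the rates that single-set regions of the same width showed, the 4286 regions would have 211 (odd alone) or 222 (even alone) with a lacZ peak, where 244 were counted, 1.16 or 1.10 times as many. The 27 regions whose odd and even peaks were linked by lacZ peaks alone enter that count by construction. Without them 217 of 4259 regions had a lacZ peak (5.10%), against 209 or 220.2 at the single-set rates, which is 1.04 or 0.985 times as many. The 3 lacZ libraries gave much the same, with ratios of 0.997, 1.05 and 1.06 to odd alone and 1.01, 0.998 and 1.06 to even alone in replicates 1, 2 and 3. Probe lists were not counted again with lacZ peaks left out. Members that reach 5 probe lists only through a lacZ peak may therefore remain among the 217. Since presence in lacZ lists is what chose the members, these values are given as a description with no test.

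The members were then compared with the 4042 probe regions without lacZ on values of the probe libraries. These values are not part of the rule, but the 27 regions linked by lacZ peaks alone are members because of that link, and their odd and even summits are apart by construction. Each of the 6 probe libraries was compared with itself. The median percentile of fold was 65.7 in members and 64.4 in lacZ-free regions on average, a difference of 1.25 ± 3.17 points (SD, n = 6 libraries; higher in 4 of 6; exact sign-flip permutation test, two-sided, p = 0.406, adjusted p = 0.406 over 3 differences). The log2 median peak length differed by 0.031 ± 0.057 (higher in 4 of 6; exact permutation p = 0.3125, adjusted p = 0.406). Both differences were smaller than the spread between libraries. The probe sets were not alike: in the even libraries the percentile difference was 3.45 ± 2.56 points and the length difference 0.072 ± 0.020, both higher in 3 of 3, and in the odd libraries -0.94 ± 2.03 and -0.0089 ± 0.055. Whether the sets differ was not tested. Without the 27 regions the differences over 6 libraries were 2.69 points and 0.066 (adjusted exact p = 0.125 for both). Libraries of 1 probe set are much alike, so 6 units overstate the independent evidence.

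The 1 measure with the same sign in every library was how often odd and even summits coincided. The share of a library's peaks with a summit within 100 bases of the other probe set's summit was 28.6%, 26.8% and 25.7% in the odd libraries and 25.9%, 26.4% and 25.5% in the even libraries for members. For lacZ-free regions it was 30.7%, 32.4% and 32.0%, and 31.1%, 32.5% and 31.1%. Members were lower in 6 of 6 libraries, by 5.15 ± 1.55 points on average (SD, n = 6; exact sign-flip permutation p = 0.031, the smallest that 6 libraries allow), and with adjustment over the 3 differences the p was 0.09375, which does not pass 0.05. The difference of -5.15 points became -0.91 when the lacZ-free regions were weighted to the members' distribution of probe width (adjusted exact p = 0.438), and -1.98 without the 27 regions (adjusted exact p = 0.125), an alternative chosen after the data were seen. The p of 0.031 includes these 27 and is not read as a difference between the 2 kinds of region. Over all alternatives run the adjusted exact p of this difference was between 0.0625 and 0.75.

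**Figure D5:**
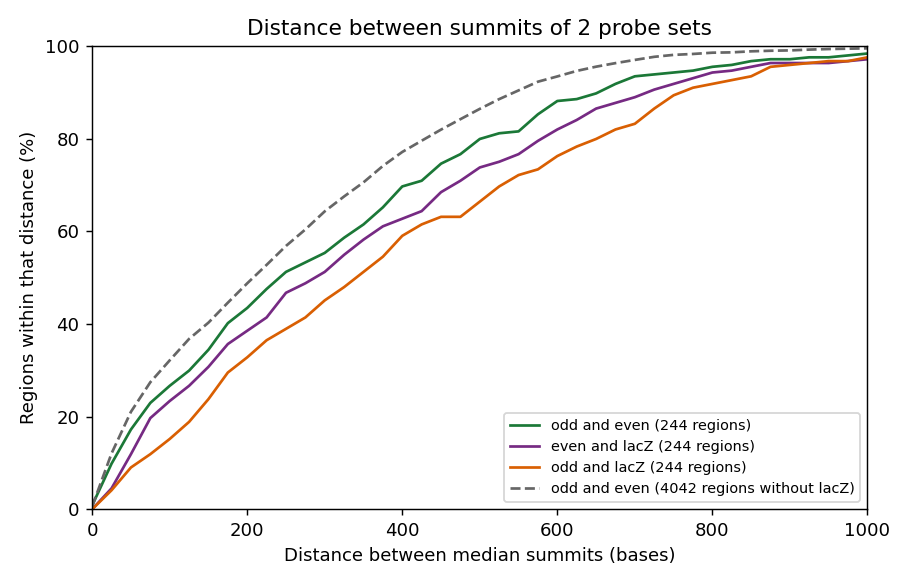
Cumulative percentage of regions (y axis) in which the median summits of 2 probe sets lie within the distance on the x axis, in bases. At 100 bases the 244 members reach 26.6% for odd and even, 23.4% for even and lacZ and 15.2% for odd and lacZ, and the 4042 regions without lacZ (dashed) reach 32.1% for odd and even.

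The members were spread over all 23 chromosomes used. Chromosome 2 held 24, and chromosomes 1 and 6 held 18 each. Relative to all merged regions of a chromosome the numbers ran from 1.63 per 10000 on chromosome X (2 members) to 13.7 on chromosome 20 (13 members), with 13.5 on chromosome 22 (7 members) and 12.6 on chromosome 21 (6 members), against 6.82 overall. Of a chromosome's regions with at least 5 probe lists, 2.25% held a lacZ peak on chromosome X, 7.56% on chromosome 20 and 10.8% on chromosome 22. These shares rest on small counts and were not tested. In the major histocompatibility region of chromosome 6, which holds the antigen-presentation genes, lay 2 members and 6 probe regions without a lacZ peak. The region there from 32739474 to 32740701 had folds of 81.8, 201 and 144 in odd, 15.6, 29.1 and 29.0 in even and 20.5, 70.6 and 13.2 in lacZ libraries, or percentiles of 98.9 to 99.6, 66.2 to 84.5 and 52.9 to 92.6.

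The members' distances to each other and to the longest peak-free stretch of their chromosome were also taken. The spacing has no comparison with other regions, and the shares near such stretches were close to those of all merged regions. Neighbouring members were 6.01 Mb apart at the median, and 3 neighbouring pairs were closer than 100 kb. The closest pair lay on chromosome 13, from 27577034 to 27579017 and from 27587333 to 27588685. The longest stretch of each chromosome without a peak in any list, which on most chromosomes is where the centromere is not assembled, had 6 members within 2 Mb (2.46%), against 2.99% of the lacZ-free probe regions and 2.72% of all merged regions. Within 5 Mb the shares were 7.79%, 6.93% and 6.86%.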

How the data were processed

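Peak lists of 9 ChIRP-seq libraries were used. The submitters' processing notes name FastQC, Bowtie2 and build hg19. The sources used here do not name the peak caller, its settings or its control. The deposited lists give positions in bases, a pileup (signal: fragments covering the summit, as whole numbers), the −log10 of p-value and q-value, and a fold enrichment (ratio of pileup to background), per the file headers. Each list is of a single library.

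Peaks were merged on 1 shared base, and the strongest peak by fold stood for a list in a region. Python 3.11.15, pandas 2.3.3, numpy 2.4.6 and scipy 1.17.1 were used. The procedure was checked on simulated lists that held no chains, so chains are outside that check. Differences used an exact sign-flip test over 6 libraries with Benjamini-Hochberg adjustment over 3, which allows a lone difference no adjusted p below 0.09375. Nothing in the labels says that replicates were separate cultures, so p-values measure the spread between these libraries, which may be technical. Same-numbered odd and even libraries deviated together in log2 fold (correlations 0.20, 0.24 and 0.27 over 2469 regions), so a replicate block was an alternative. Regions were named by rank of mean percentile over probe lists (10), over lacZ lists (8), by the lowest percentile in 9 lists (6), by summits within 50 bases (4 existed), by odd-even distance (3) and at the rule's edge; the other regions with summits within 100 bases and the one in the histocompatibility region were added after their values were seen. The members and these lists were chosen with earlier results of these data known. No genome of build hg19 was used, so no gene or sequence is given.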

Additional observations from a re-analysis of the deposited data

How the results depend on the processing

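The count of 244 regions depended on the lists and on the rule: 40 from the peaks with higher folds, 14 after cutting every list to the same length, 763 when gaps of up to 500 bases were merged, 135 with all 6 and 407 with at least 4 probe lists, 147 with at least 2 and 85 with all 3 lacZ lists, and 18 where peaks had to cover at least 50% of the region. Leaving out replicates gave 125 to 374. The 49 regions with all lists became 10 among higher folds, 5 at the same length, 128 with merging over 500 bases, and 48 to 77 when replicates were left out. Shorter lists have fewer peaks to share by construction; for the other changes the cause was not tested.

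Merging over 500 bases brought the share with all 3 summits within 100 bases to 1.31%, that of odd and even to 12.3% and that with a common base to 18.6%; within 50 bases these 2 summit shares were 1.64% and 17.2%. The share with a common base was 63.1% without the regions linked by lacZ peaks alone, and the share near peak-free stretches 7.79% within 5 Mb. No difference from lacZ-free regions passed adjustment under any alternative run, but fits with 3 or 4 libraries allow no exact p below 0.25 or 0.125, so they could not pass. The percentile difference turned to -0.78 with at least 2 lacZ lists, -0.91 with weighting for width and -0.94 with odd libraries alone (3.45 with even alone), and ran from -0.81 to 3.04 without replicates; the length difference turned to -0.021, -0.022 and -0.0089 (0.072 with even alone), and ran from -0.017 to 0.093. With a replicate block the summit difference was -5.15 points (adjusted exact p = 0.5), and the block changed no call. It ran from -8.23 to -4.72 when replicates were left out. Depth is unknown for all lists.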

Other observations

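Outside the main chromosomes, 10 regions had a peak in at least 5 probe lists, and 1 of them also had lacZ peaks, in all 3 lists. It lay on mitochondrial DNA from 92 to 2779. The lacZ folds there were 10.7, 16.5 and 9.46 with summits at 1242, 1245 and 1256, the odd folds 5.10, 5.37 and 6.44 with summits at 652, 615 and 617, and the even folds 2.63, 4.14 and 6.34 with summits at 330, 345 and 345. The summits of each set lay apart from those of the other sets.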
